A study of Mus musculus with 9 samples.

Results

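The transforming growth factor beta (TGF-beta) system was examined through 10 genes chosen by symbol, out of 54429 symbols in the count table. They are the ligands Tgfb1, Tgfb2 and Tgfb3, the receptors Tgfbr1, Tgfbr2 and Tgfbr3, the latent TGF-beta binding proteins Ltbp1, Ltbp2 and Ltbp3, and the intracellular inhibitor Smad7. All 10 passed the filter on low counts and were among the 15931 genes tested.

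TGF-beta is secreted in a latent form, in which its propeptide holds the mature cytokine inactive and a binding protein of the Ltbp family tethers the complex to the extracellular matrix. Integrins and proteases release the active cytokine, which assembles the type II receptor Tgfbr2 with the type I receptor Tgfbr1, while Tgfbr3 (betaglycan) presents ligand to them. Activated Tgfbr1 phosphorylates Smad2 and Smad3, and Smad7, itself induced by the signal, feeds back to block the receptor. In tumors the cytokine is known for its effects on fibroblasts and matrix and for restraining T cells.

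The genes were counted by RNA-seq in 9 whole subcutaneous tumors of NB9464, a MYCN-amplified neuroblastoma line of the mouse. All hosts were wild-type C57BL/6 mice, aged 4 to 6 weeks at implantation by the study's methods, and treatment began at a tumor volume of 250 mm3. There were 3 tumors per group, treated with vehicle, with R788 + anti-PDL1, or with Rad + R788 + anti-PDL1, the last called irradiated replicates 1 to 3. R788 (fostamatinib), a prodrug inhibitor of the kinase Syk, was given at 50 mg/kg 5 times a week, anti-PDL1 is an antibody against the checkpoint ligand encoded by Cd274, and the radiation dose was 10 Gy. Since the irradiated tumors also received both drugs, and neither single drugs nor radiation alone were analysed here, the effect of a single agent cannot be told apart. The labels do not tie each tumor to a separate mouse in so many words, so p-values measure the spread between these samples.

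Total counts ranged from 18276683 to 23397886 per library. Irradiated replicate 1 stood apart, with Pearson r across genes of 0.865 to 0.907 to the other libraries, a TMM scaling factor of 0.743 against 0.975 to 1.12, and 1.97% mitochondrial counts against 3.48% to 5.71%. Results that rest on it are therefore given with and without it. Among the noradrenergic markers that should define the tumor cells, Th had no count in any library and Phox2a, Dbh and Chga had at most 3, whereas Hand2 (6545 to 12901 counts) and Mycn (1265 to 6107 counts) were abundant. In whole tumors, fewer cells of a type and less RNA per cell cannot be told apart.

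None of the 10 genes passed the test in any of the 3 comparisons. The test was edgeR's quasi-likelihood test with Benjamini-Hochberg adjustment over all tested genes, and a gene was called at an adjusted p-value under 0.05. Against vehicle, R788 + anti-PDL1 called 0 of 10 members, where 0.678% of all tested genes were called. Unadjusted p-values were under 0.05 for 3 members, beside 11.7% of all genes, and the 2 groups did not overlap for 5 members, beside 30.1% of all genes. The irradiated tumors against vehicle gave 0 calls (0.0439% of all genes), 3 members with an unadjusted p-value under 0.05 (13.2%) and 2 whose groups did not overlap (20.5%). The irradiated against the R788 + anti-PDL1 tumors gave 0 calls (0.00628%), 3 unadjusted p-values under 0.05 (18.4%) and 6 members without overlap (27.4%). The 3 comparisons share samples, so these counts are not independent of each other.

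The lack of calls depended on the tool. DESeq2, the tool of the study, called Ltbp2 and Smad7 for R788 + anti-PDL1 against vehicle, where it called 4.83% of all genes, and no member in the other comparisons, where it called 3.85% and 5.17%. Limma-voom with sample quality weights called 4 members (Ltbp2, Ltbp3, Smad7 and Tgfbr1) for R788 + anti-PDL1 against vehicle, 2 (Ltbp1 and Smad7) for irradiated against vehicle, and 3 (Ltbp3, Smad7 and Tgfb1) for irradiated against R788 + anti-PDL1. That fit called 30.3%, 12.5% and 19.3% of all genes in these comparisons, respectively.

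**Figure D1:**
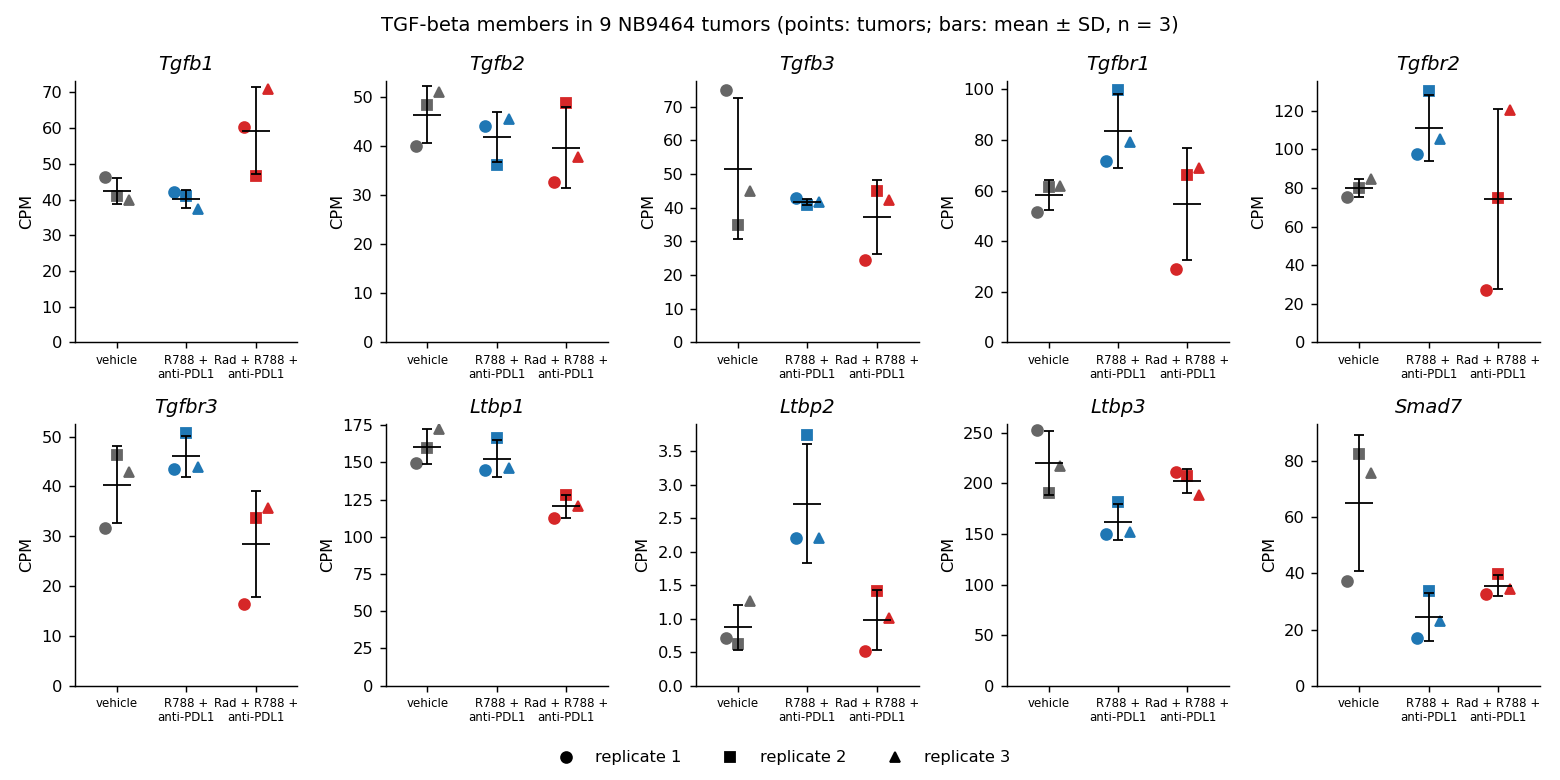
CPM (the count relative to the TMM-scaled library size) of the 10 genes in each tumor, with a linear axis from 0 for each gene; symbols mark replicates, and bars give the mean ± SD (n = 3). Smad7 reaches 75.7 and 82.6 CPM in 2 vehicle tumors and at most 39.8 CPM in the 6 treated tumors, and irradiated replicate 1 has the lowest value of Tgfbr1, Tgfbr2, Tgfbr3, Tgfb2, Tgfb3, Ltbp1 and Ltbp2.

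The first question was which ligand the tumors expressed. Levels were compared between genes as CPM per kb of merged exon, a scale that depends on the transcript models. In vehicle tumors Tgfb3 had the highest mean at 15.3 ± 6.19 CPM per kb (SD, n = 3), followed by Tgfb1 at 8.41 ± 0.705 and Tgfb2 at 8.03 ± 1.0 CPM per kb. The level of Tgfb3 exceeded those of Tgfb1 and Tgfb2 in each vehicle tumor, and these differed by less than their spread. With the longest transcript as the length, Tgfb1 was at 16.5 ± 1.38 CPM per kb and no longer below Tgfb3, so the order of these 2 ligands cannot be settled from gene-level counts.

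Tgfb1 (ENSMUSG00000002603.15, chromosome 7, 25687002 to 25705077, plus strand) encodes the ligand that dominates in immune cells and platelets. It was measured at 46.4, 40.9 and 39.8 CPM in vehicle replicates 1 to 3, at 42.0, 41.1 and 37.3 CPM in the R788 + anti-PDL1 tumors, and at 60.3, 46.6 and 71.0 CPM in the irradiated tumors. All 3 irradiated values lay above all 6 others, by a narrow margin in irradiated replicate 2. The log2 fold change was 0.48 ± 0.20 (SE) against vehicle (edgeR adjusted p = 0.354; 95% confidence interval 0.04 to 0.93) and 0.56 ± 0.20 against R788 + anti-PDL1 (adjusted p = 0.226; 0.12 to 1.0), so neither difference passed the test. Without irradiated replicate 1 these differences were 0.50 and 0.56. Leaving out 1 tumor at a time moved the first between 0.33 and 0.62 and the second between 0.41 and 0.71. R788 + anti-PDL1 against vehicle gave -0.08 ± 0.20 (adjusted p = 0.923).

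Macrophage markers moved with part of this pattern. Their summed level over 10 genes, none of them at 0 in any library, was 307 to 623 CPM in vehicle, 642 to 682 CPM in R788 + anti-PDL1 and 327 to 1780 CPM in irradiated tumors. The tumor with 1780 CPM was irradiated replicate 3, which also had the highest Tgfb1. Of the 10 macrophage genes, 9 had a higher mean in irradiated tumors than in vehicle and none was called. The 2 groups overlapped for all 10, and the sums of irradiated replicates 1 and 2 (496 and 327 CPM) lay within the vehicle range. Behind the sum of irradiated replicate 1 the genes went both ways. C1qa (143 CPM) lay above every vehicle tumor, and Cd68 (10.5 CPM) and Itgam (1.55 CPM) lay below every vehicle tumor. In irradiated replicate 1, with the second highest Tgfb1, macrophage markers summed to 496 CPM and the 5 platelet markers to 73.8 CPM, against 17.1 to 36.3 CPM in the other 8 libraries, although 1 of the 5 was at 0 in it. Of these, Itga2b (21.3 CPM) and Gp1bb (25.8 CPM) were its highest of the series, but Pf4 (26.0 CPM) and Ppbp (0.738 CPM) were not. The skeletal muscle sum (27.3 CPM) and the keratinocyte sum (75.8 CPM) were also highest in this library, so the rise was not particular to platelet markers. T cell markers, of which 2 of 8 passed the filter, summed to 2.07 to 4.03 CPM in vehicle, 4.78 to 24.2 CPM in R788 + anti-PDL1 and 1.70 to 36.1 CPM in irradiated tumors, again with the highest value in irradiated replicate 3. Most of the sum in R788 + anti-PDL1 replicates 1 and 3 came from Cd4, at 22.9 and 12.2 CPM. Cd3e, Cd3d and Cd3g were each at 0.65 CPM or less in that group. The part of these cells in the Tgfb1 values was not tested.

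Tgfb2 (ENSMUSG00000039239.14, chromosome 1, 186622792 to 186705989, minus strand), a ligand of development and of mesenchymal cells, was at 40.0, 48.4 and 51.1 CPM in vehicle, 44.1, 36.2 and 45.5 CPM in R788 + anti-PDL1, and 32.7, 48.8 and 37.8 CPM in irradiated tumors. The groups overlapped in every comparison, with log2 fold changes of -0.15 ± 0.21 for R788 + anti-PDL1 and -0.23 ± 0.21 for irradiated tumors against vehicle. Without irradiated replicate 1 the latter was -0.07 ± 0.17. Tgfb3 (ENSMUSG00000021253.7, chromosome 12, 86056745 to 86079041, minus strand), a ligand known from palate fusion and wound repair, was at 75.1, 34.8 and 44.9 CPM in vehicle, 42.8, 40.8 and 41.6 CPM in R788 + anti-PDL1, and 24.5, 44.9 and 42.2 CPM in irradiated tumors. Here 2 tumors set the spread, vehicle replicate 1 at the top and irradiated replicate 1 at the bottom, and the R788 + anti-PDL1 tumors lay within 2 CPM of each other. The irradiated difference from vehicle was -0.47 ± 0.32 with all tumors and -0.22 ± 0.28 without irradiated replicate 1, and the difference from R788 + anti-PDL1 turned from -0.17 to 0.07. Both genes share exon bases with little-expressed genes on the other strand (0 to 4 counts per library), so a small part of their counts was uncertain.

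The share of each ligand within a tumor does not depend on scaling between libraries. Tgfb1 made up 24.0%, 30.3% and 26.3% of the ligand counts per kb in vehicle tumors, 29.2%, 30.8% and 26.9% in R788 + anti-PDL1 tumors, and 48.1%, 29.9% and 42.6% in irradiated tumors. Irradiated replicates 1 and 3 had the largest shares of the 9 tumors, and irradiated replicate 2 lay among the unirradiated ones. The mean share was 13.3 percentage points higher in irradiated than in vehicle tumors (exact permutation test, two-sided, p = 0.2) and 11.2 points higher than in R788 + anti-PDL1 tumors (exact p = 0.2), where 3 against 3 cannot give less than 0.1. R788 + anti-PDL1 differed from vehicle by 2.06 points (exact p = 0.4). Without irradiated replicate 1 the difference from vehicle was 9.33 points. In irradiated replicate 1 the larger Tgfb1 share went with the smallest Tgfb3 share of the series, 29.1%.

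**Figure D2:**
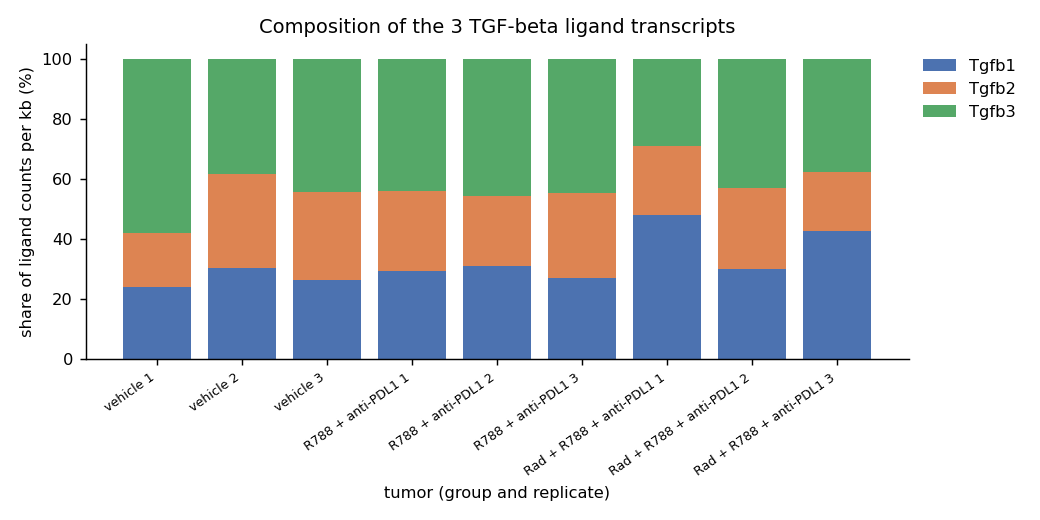
Share of Tgfb1, Tgfb2 and Tgfb3 in the ligand counts per kb of merged exon (vertical axis, percent) in each of the 9 tumors (horizontal axis); each bar is 1 tumor and sums to 100%. The Tgfb1 share is 24.0% to 30.8% in the 6 unirradiated tumors and 48.1%, 29.9% and 42.6% in irradiated replicates 1 to 3.

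Promoters are shown for the ligand and the receptors whose values are set side by side here, because the paired receptors ranked the tumors alike. Each run is the 250 bases before the RefSeq transcript start (GRCm38.p6), on the strand of the gene, and the upstream of the 2 entries of Tgfbr1 is shown. Capitals mark 3 motifs searched on both strands, the GC box GGGCGG, the TATA box TATAAA and the E-box CACGTG, and no marked motif overlaps another. The positions are chr7:25686752-25687001 for Tgfb1, chr1:186705990-186706239 for Tgfb2, chr4:47352972-47353221 for Tgfbr1 and chr9:116175364-116175613 for Tgfbr2.
Tgfb1: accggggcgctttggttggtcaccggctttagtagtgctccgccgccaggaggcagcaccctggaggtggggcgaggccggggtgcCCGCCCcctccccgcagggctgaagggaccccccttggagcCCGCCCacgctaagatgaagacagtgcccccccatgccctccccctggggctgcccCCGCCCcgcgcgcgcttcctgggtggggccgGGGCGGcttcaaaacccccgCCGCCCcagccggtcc
Tgfb2: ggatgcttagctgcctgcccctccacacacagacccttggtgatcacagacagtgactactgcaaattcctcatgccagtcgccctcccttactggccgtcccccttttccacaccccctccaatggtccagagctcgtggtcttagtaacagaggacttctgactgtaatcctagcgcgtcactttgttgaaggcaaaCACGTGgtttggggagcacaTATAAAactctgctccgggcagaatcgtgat
Tgfbr1: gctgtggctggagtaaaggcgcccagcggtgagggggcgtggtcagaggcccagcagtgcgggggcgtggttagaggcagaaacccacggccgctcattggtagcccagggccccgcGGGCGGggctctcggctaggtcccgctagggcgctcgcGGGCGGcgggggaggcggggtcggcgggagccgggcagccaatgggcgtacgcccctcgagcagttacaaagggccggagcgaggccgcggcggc
Tgfbr2: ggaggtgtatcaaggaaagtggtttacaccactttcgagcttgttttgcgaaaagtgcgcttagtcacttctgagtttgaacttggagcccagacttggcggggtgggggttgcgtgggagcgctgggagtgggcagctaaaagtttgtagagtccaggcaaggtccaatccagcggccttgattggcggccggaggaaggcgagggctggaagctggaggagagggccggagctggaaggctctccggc

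The Tgfb1 promoter held 5 GC boxes in 75.2% G+C, a motif found in 32.7% of 32851 promoters of the same length. The Tgfb2 promoter, at 53.6% G+C, held none, but had a TATA box starting 31 bases before the transcript start (12.4% of promoters) and an E-box starting 51 bases before it (6.02%). Tgfbr1 had 2 GC boxes in 74.8% G+C and Tgfbr2 none of the marked motifs in 58.4% G+C. The SMAD palindrome GTCTAGAC (0.167% of promoters) and the AP-1 motif TGANTCA (6.75%) were found in none of the 4. Promoter entries matched 7 of the 10 genes, all but Tgfb3, Tgfbr3 and Smad7.

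Tgfbr1 (ENSMUSG00000007613.15, chromosome 4, 47353222 to 47414931, plus strand), the kinase that phosphorylates Smad2 and Smad3, was at 51.5, 61.4 and 61.9 CPM in vehicle, 71.7, 99.8 and 79.1 CPM in R788 + anti-PDL1, and 29.1, 66.3 and 68.9 CPM in irradiated tumors. Every R788 + anti-PDL1 tumor lay above every other tumor. The log2 fold change of 0.52 ± 0.31 against vehicle did not pass the test (edgeR adjusted p = 0.591; 95% confidence interval -0.17 to 1.21). Irradiated tumors differed from vehicle by -0.09 ± 0.31, a value that turned to 0.24 ± 0.16 without irradiated replicate 1, when both remaining tumors lay above the vehicle range.

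Tgfbr2 (ENSMUSG00000032440.13, chromosome 9, 116084293 to 116175360, minus strand), the receptor that binds the ligand first, was at 75.3, 80.1 and 84.5 CPM in vehicle, 97.6, 130 and 105 CPM in R788 + anti-PDL1, and 27.3, 74.7 and 121 CPM in irradiated tumors. It ranked the tumors as Tgfbr1 did within each of the 3 groups, with R788 + anti-PDL1 replicate 2 and irradiated replicate 3 at the top of theirs. R788 + anti-PDL1 tumors lay above all vehicle tumors, with a log2 fold change of 0.47 ± 0.42 (adjusted p = 0.743). The irradiated group spread from 27.3 to 121 CPM, and its difference from vehicle turned from -0.11 ± 0.42 to 0.32 ± 0.21 without irradiated replicate 1.

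Tgfbr3 (ENSMUSG00000029287.14, chromosome 5, 107106570 to 107289629, minus strand), the co-receptor betaglycan, was at 31.6, 46.4 and 43.0 CPM in vehicle, 43.5, 50.8 and 43.8 CPM in R788 + anti-PDL1, and 16.3, 33.6 and 35.7 CPM in irradiated tumors. All irradiated tumors lay below all R788 + anti-PDL1 tumors, at -0.69 ± 0.30 (adjusted p = 0.262), and at -0.40 ± 0.18 without irradiated replicate 1 (adjusted p = 0.311). Against vehicle the irradiated difference was -0.50 ± 0.30 (adjusted p = 0.45), or -0.19 ± 0.18 without that tumor. Its counts include 297 exon bases shared with a gene on the same strand that had at most 5 counts per library. In CPM per kb, the vehicle means of Tgfbr2 (9.77 ± 0.562) and Tgfbr1 (8.92 ± 0.895) differed by less than their spread added together, and Tgfbr3 (6.16 ± 1.18) lay below both.

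Several marker lists, fibroblast and endothelial among them, ranked the R788 + anti-PDL1 tumors as these receptors did. The 10 fibroblast genes summed to 3009, 5617 and 3536 CPM in R788 + anti-PDL1 replicates 1 to 3, and the 10 endothelial genes to 60.5, 156 and 87.8 CPM. Most of the fibroblast sums came from Col1a1 (2399, 2845 and 2439 CPM) and Col3a1 (400.5, 2126 and 790.5 CPM). Both are also in the list of genes commonly induced by TGF-beta described below. Fap did not follow the order, at 7.63, 7.64 and 5.94 CPM, and the other genes of the fibroblast list did. In vehicle replicates 1 to 3 the sums were 3856, 3151 and 3293 CPM for fibroblast and 54.0, 59.6 and 60.7 CPM for endothelial genes. In irradiated replicates 1 to 3 they were 2601, 5058 and 4464 CPM and 103, 82.1 and 87.4 CPM. Of the fibroblast and endothelial orders in these 2 groups, only the endothelial order in vehicle matched that of Tgfbr1 and Tgfbr2. No gene of either list was at 0 in any library, 8 of 10 fibroblast and 10 of 10 endothelial genes had higher means in R788 + anti-PDL1 than in vehicle, and none was called. The 9 mural cell genes gave the same order in R788 + anti-PDL1 replicates 1 to 3, at 242, 378 and 257 CPM. So did the 10 macrophage genes, at 642, 682 and 665 CPM, and the 6 keratinocyte genes, at 2.16, 64.2 and 24.0 CPM. The T cell, platelet, skeletal muscle and noradrenergic sums did not. An order of 3 tumors shared by this many lists does not single out a cell type. The part of any of these cells in the receptor values was not tested.

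**Figure D3:**
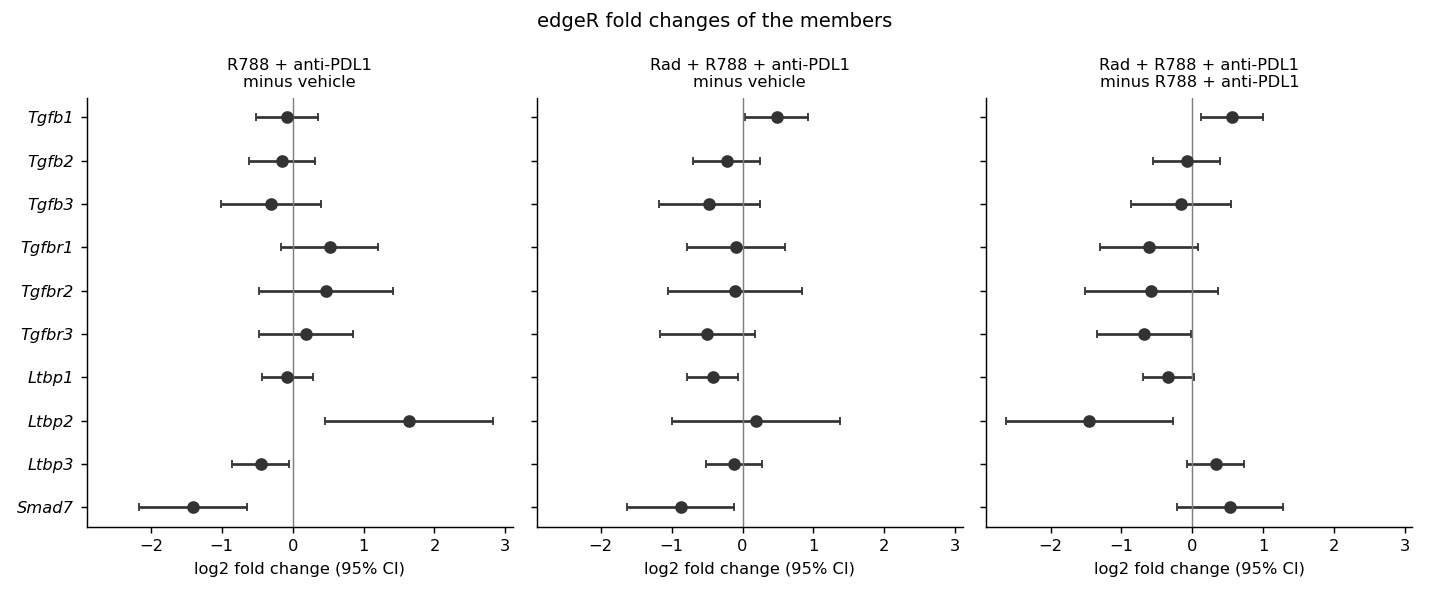
Log2 fold changes (horizontal axis) of the 10 genes (rows) in the 3 comparisons, from the edgeR fit of all 9 tumors; points are estimates and bars 95% confidence intervals, not adjusted for multiple testing. Smad7 (-2.17 to -0.64), Ltbp2 (0.46 to 2.83) and Ltbp3 (-0.85 to -0.05) have intervals clear of 0 for R788 + anti-PDL1 against vehicle, and no gene has an adjusted p-value under 0.05.

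The latency proteins differed widely in level. In vehicle tumors Ltbp3 had 24.3 ± 3.47 CPM per kb, the highest of the 10 genes, Ltbp1 had 15.0 ± 1.09 and Ltbp2 0.106 ± 0.0418 CPM per kb, far below the rest.

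Ltbp1 (ENSMUSG00000001870.16, chromosome 17, 75005568 to 75392512, plus strand) encodes the main matrix anchor of the latent complex. It was at 149.5, 159.9 and 173 CPM in vehicle, 145, 167 and 146 CPM in R788 + anti-PDL1, and 113, 128 and 121 CPM in irradiated tumors. The 3 irradiated tumors were the lowest of the 9, and the group's coefficient of variation was 6.37%. The log2 fold change was -0.42 ± 0.16 against vehicle (edgeR adjusted p = 0.337; 95% confidence interval -0.78 to -0.06) and -0.34 ± 0.16 against R788 + anti-PDL1 (adjusted p = 0.282). Without irradiated replicate 1 these were -0.34 ± 0.12 and -0.29 ± 0.12, with adjusted p-values of 0.22 and 0.288. R788 + anti-PDL1 and vehicle overlapped (-0.07 ± 0.16).

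Ltbp2 (ENSMUSG00000002020.15, chromosome 12, 84783212 to 84876532, minus strand) differs from its relatives in not binding latent TGF-beta, and is known as a partner of elastic fibers. It had 13, 14 and 23 counts in vehicle, 50, 98 and 54 in R788 + anti-PDL1, and 7, 28 and 22 in irradiated tumors. These correspond to 0.718, 0.629 and 1.26 CPM, to 2.21, 3.75 and 2.21 CPM, and to 0.516, 1.42 and 1.01 CPM, so each R788 + anti-PDL1 tumor exceeded every other tumor. The log2 fold change was 1.64 ± 0.53 against vehicle (edgeR adjusted p = 0.243), and -1.46 ± 0.53 for irradiated against R788 + anti-PDL1 tumors (adjusted p = 0.23; -1.16 ± 0.51 without irradiated replicate 1). Few counts and 764 exon bases shared with an antisense gene of 0 to 5 counts per library limit these values.

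Ltbp3 (ENSMUSG00000024940.11, chromosome 19, 5740904 to 5758532, plus strand), which binds and helps secrete latent TGF-beta, was at 253, 190.3 and 217 CPM in vehicle, 150, 182 and 152 CPM in R788 + anti-PDL1, and 212, 207 and 189 CPM in irradiated tumors. The R788 + anti-PDL1 tumors were the lowest 3 of the 9, with a log2 fold change of -0.45 ± 0.18 against vehicle (edgeR adjusted p = 0.366), while irradiated tumors lay at 0.33 ± 0.18 relative to R788 + anti-PDL1 (adjusted p = 0.336). The Ltbp3 counts were treated as uncertain, since it is not stated whether the counting used strand.

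Smad7 (ENSMUSG00000025880.11, chromosome 18, 75367529 to 75395935, plus strand) gave the lowest p-value of the 10 genes. It was at 37.4, 82.6 and 75.7 CPM in vehicle, 16.9, 33.9 and 23.1 CPM in R788 + anti-PDL1, and 32.7, 39.8 and 34.3 CPM in irradiated tumors. All R788 + anti-PDL1 tumors lay below all vehicle tumors, whereas vehicle replicate 1 lay within the irradiated range. The log2 fold change for R788 + anti-PDL1 was -1.41 ± 0.34 (unadjusted p = 0.00226, edgeR adjusted p = 0.11; 95% confidence interval -2.17 to -0.64), and leaving out 1 tumor at a time moved it between -1.71 and -1.20. For irradiated tumors it was -0.87 ± 0.34 against vehicle (adjusted p = 0.337) and 0.53 ± 0.34 against R788 + anti-PDL1 (adjusted p = 0.395).

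Other genes of chromosome 18 moved with Smad7. By Pearson correlation of log2 CPM over the 9 tumors, among 11632 genes, those most like it were Dym (r = 0.99), Ss18 (r = 0.988) and Slc39a6 (r = 0.975), which all lie on chromosome 18, as do 13 of its 50 most alike genes against 2.53% of the genes compared. The points include the differences between groups, so these correlations are descriptions with no p-value. After this was seen, the other 396 tested genes of the chromosome were summarized. Their median log2 fold change for R788 + anti-PDL1 against vehicle was -0.50, with 77.8% of them lower, against a median of -0.02 over all genes tested. For irradiated against vehicle tumors the chromosome's median was -0.06, and against R788 + anti-PDL1 0.35.

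The lower level of the chromosome was not shared by all R788 + anti-PDL1 tumors. Relative to the mean of the 9 tumors, the median of the 309 genes of chromosome 18 that averaged 50 or more counts was -0.78 and -0.46 on the log2 scale in R788 + anti-PDL1 replicates 1 and 3, 0.25 in replicate 2, and between -0.04 and 0.30 in the other 6 tumors. Smad7 on the same scale was at -1.13 and -0.69 in replicates 1 and 3 and at -0.14 in replicate 2. Smad7 minus the chromosome's median was -0.29, 0.96 and 0.79 in vehicle, -0.35, -0.39 and -0.23 in R788 + anti-PDL1, and -0.15, -0.11 and -0.24 in irradiated tumors. On this scale vehicle replicates 2 and 3 stood above the other 7 tumors, and vehicle replicate 1 lay among the treated ones. What lowered the chromosome's genes in 2 of the tumors was not tested.

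**Figure D4:**
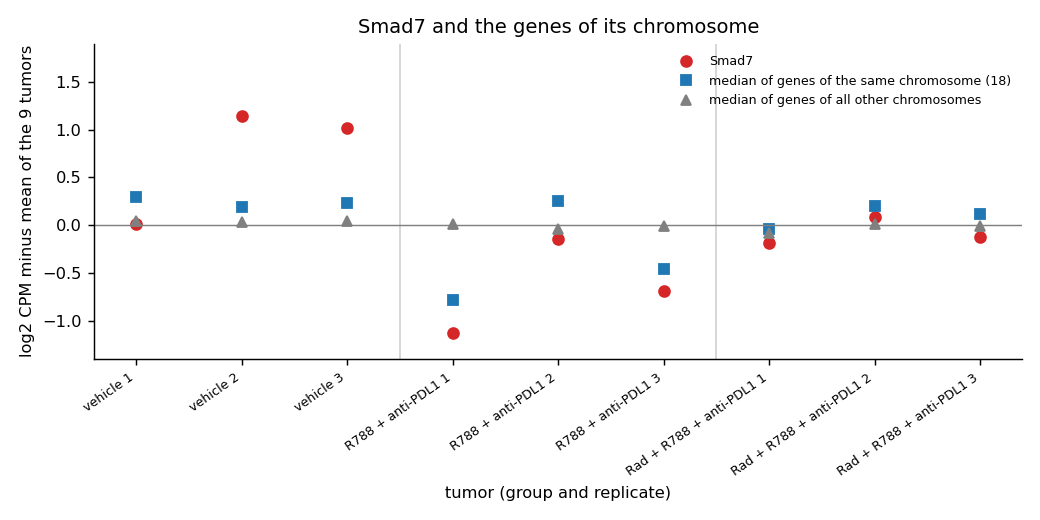
Log2 CPM minus the mean of the 9 tumors (vertical axis) for Smad7 (circles), the median of 309 other genes of chromosome 18 (squares) and the median of 12043 genes of all other chromosomes (triangles), in each tumor (horizontal axis). The chromosome 18 median lies at -0.78 and -0.46 in R788 + anti-PDL1 replicates 1 and 3, and Smad7 is highest, at 1.15 and 1.02, in vehicle replicates 2 and 3.

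Of the 50 genes most like each ligand, 8 lay on the chromosome of Tgfb3 (against 3.48% of the genes compared), 3 on that of Tgfb1 (7.71%) and 4 on that of Tgfb2 (5.67%). The 3 most alike to Tgfb1 were Fam49b (r = 0.951), Itm2b (0.947) and Pstpip1 (0.939), those to Tgfb2 Zfp446 (0.95), Lpcat3 (0.945) and Ptk7 (0.939), and those to Tgfb3 Wwc1 (0.967), Tmcc3 (0.953) and Snw1 (0.934), over the same 9 tumors. Of these 9 named genes, only Snw1 shares its ligand's chromosome. Pstpip1, an adaptor of blood cells, was highest at 17.03 and 13.9 CPM in irradiated replicates 3 and 1, the tumors with the most Tgfb1. It was picked for its correlation with Tgfb1 in these same tumors, so this match followed from the choice.

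Besides the 10 members, 91 other genes of the pathway were tested, in 4 lists. For R788 + anti-PDL1 against vehicle, edgeR called 4, 3 higher and 1 lower, beside 0.678% of all genes tested, and DESeq2 called 16, beside 4.83%. By edgeR, 1 of 19 tested latency and activation genes rose, and of 30 commonly induced genes 2 rose and 1 fell. None was called among 24 signaling and feedback genes, of which 3 had an unadjusted p-value under 0.05, or among 18 other ligands, receptors and antagonists, of which 1 did, beside 11.7% of all genes. The median log2 fold changes of the lists were 0.49, -0.10, 0.19 and 0.05, beside -0.02 over all genes tested.

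In each of the 4 called genes, the R788 + anti-PDL1 tumors lay close together and apart from all vehicle tumors. Cd109, a co-receptor known to promote receptor breakdown, was at 10.5, 13.8 and 14.8 CPM in vehicle and 39.6, 33.8 and 38.3 CPM in R788 + anti-PDL1 tumors, a rise of 1.52 ± 0.22 (edgeR adjusted p = 0.0383). In irradiated tumors it was at 29.4, 43.2 and 34.4 CPM, again above all vehicle tumors, but the log2 fold change of 1.45 ± 0.22 was not called (adjusted p = 0.0637). Zeb2, a transcription factor of mesenchymal and myeloid cells, was at 9.39, 8.94 and 8.77 CPM in vehicle and at 45.1, 44.4 and 45.0 CPM in R788 + anti-PDL1 tumors (2.31 ± 0.32, adjusted p = 0.0383). Its irradiated values of 25.2, 19.7 and 49.6 CPM were highest in the tumor richest in macrophage markers, and its counts are uncertain since 3 annotated genes share its exon bases.

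Adam12, a metalloprotease of stromal and muscle cells, was at 8.72, 6.42 and 4.604 CPM in vehicle and 24.7, 25.3 and 24.8 CPM in R788 + anti-PDL1 tumors (1.92 ± 0.31, edgeR adjusted p = 0.0383), and at 7.01, 12.8 and 11.7 CPM in irradiated tumors. Cyr61, a matricellular protein that TGF-beta, YAP and growth factors all induce, was at 35.5, 40.4 and 45.7 CPM in vehicle and at 16.4, 13.7 and 13.9 CPM in R788 + anti-PDL1 tumors, a log2 fold change of -1.47 ± 0.20 (adjusted p = 0.0375). Induced genes stood on both sides, with Zeb2 and Adam12 higher and Cyr61 lower. The fold changes held when 1 tumor of the comparison was left out, at 1.40 to 1.61 for Cd109, 2.29 to 2.36 for Zeb2, 1.71 to 2.20 for Adam12 and -1.56 to -1.38 for Cyr61, but most calls did not, with edgeR adjusted p-values of up to 0.216. Leaving out vehicle replicate 2 or 3, or R788 + anti-PDL1 replicate 1 or 3, left 0 pathway calls, leaving out vehicle replicate 1 left 3 (Adam12, Cyr61 and Twist1), and leaving out R788 + anti-PDL1 replicate 2 left 1 (Mmp9).

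The signaling list held the feedback genes closest to Smad7. Pmepa1, a feedback inhibitor induced by TGF-beta, was at 1.66, 0.359 and 0.438 CPM in vehicle and 2.21, 7.76 and 4.39 CPM in R788 + anti-PDL1 tumors (log2 fold change 2.55 ± 0.69, edgeR adjusted p = 0.152). Nedd4l, a ubiquitin ligase that acts on activated Smad2 and Smad3, was at -1.02 ± 0.37 (adjusted p = 0.308) and Smad2 at -0.56 ± 0.23 (adjusted p = 0.386). Nedd4l and Smad2 lie on chromosome 18, where 5 of 7 tested pathway genes had negative log2 fold changes against vehicle. Smad4, on the same chromosome, was at 54.98 and 71.1 CPM in R788 + anti-PDL1 replicates 1 and 3, at 143 CPM in replicate 2 and at 118 to 129 CPM in vehicle. Lox, the crosslinker of collagen and elastin, lies there too and went the other way, at 1.10, 2.47 and 2.96 CPM in vehicle and 7.06, 11.1 and 7.75 CPM in R788 + anti-PDL1 tumors (1.98 ± 0.53, adjusted p = 0.149). In the last list, the activin receptor Acvr2a (0.89 ± 0.31, adjusted p = 0.293), the antagonist Chrd (-0.75 ± 0.35, adjusted p = 0.447) and the stress cytokine Gdf15 (1.38 ± 0.71, adjusted p = 0.517) had the lowest p-values.

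**Figure D5:**
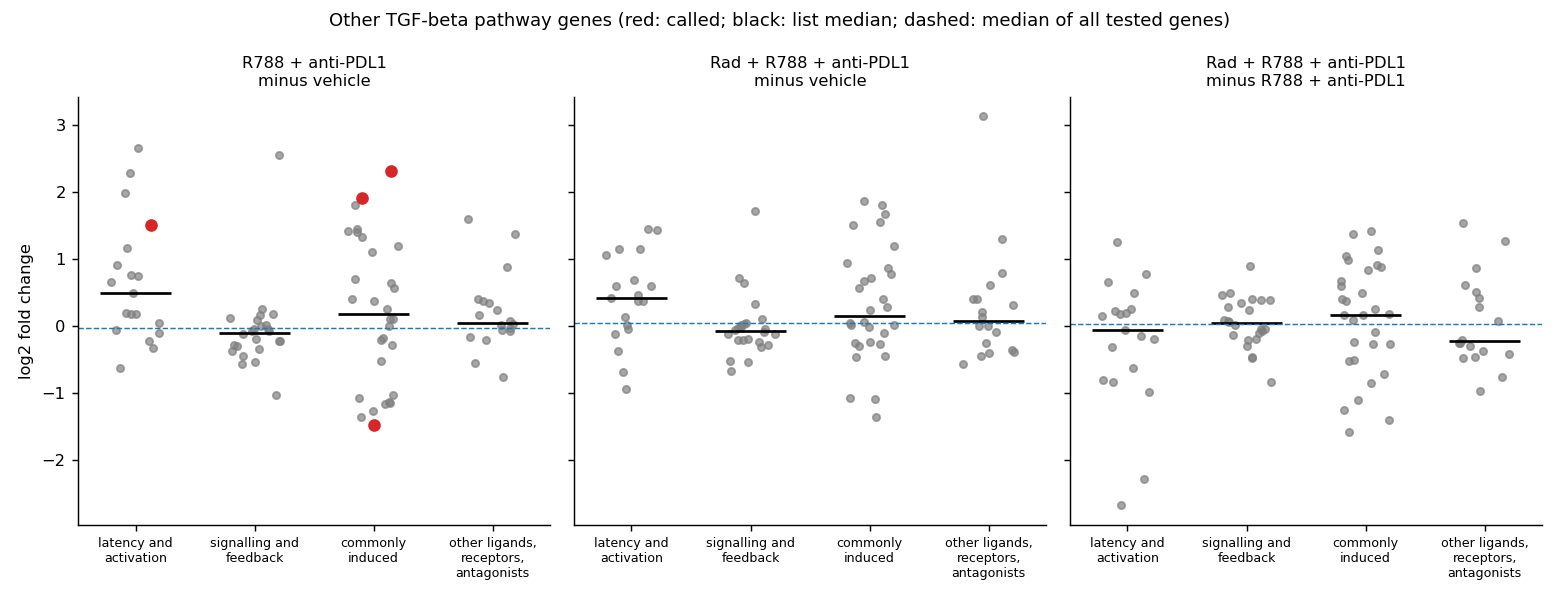
Log2 fold changes (vertical axis) of the tested pathway genes other than the 10 members, by list (horizontal axis, points spread sideways for clarity) and comparison (panels); red points are called, black lines are list medians and the dashed line is the median of all tested genes. In this edgeR fit, calls appear only for R788 + anti-PDL1 against vehicle, at Zeb2 (2.31), Adam12 (1.92), Cd109 (1.52) and Cyr61 (-1.47).

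For irradiated against vehicle tumors no gene of the 4 lists was called by edgeR (7 by DESeq2), and unadjusted p-values were under 0.05 for 6 of 19, 1 of 24, 7 of 30 and 3 of 18 genes, beside 13.2% of all genes. The medians were 0.42, -0.07, 0.15 and 0.07, beside 0.05 over all genes. In the induced list, the filament protein Vim was at 403, 308 and 374 CPM in vehicle and 1484, 880.2 and 835 CPM in irradiated tumors, without overlap (1.56 ± 0.26, edgeR adjusted p = 0.0912, and 1.27 ± 0.14 without irradiated replicate 1). Zeb2 followed with 1.80 ± 0.32 (adjusted p = 0.0921), and Cyr61 with -1.09 ± 0.20 (adjusted p = 0.0961). Among latency genes, Cd109 was followed by the integrin subunit Itgav (1.15 ± 0.42, adjusted p = 0.327, and 0.44 ± 0.21 without irradiated replicate 1) and the protease Mmp9 (1.44 ± 0.53, adjusted p = 0.329). In the signaling list the lowest p-values belonged to Pmepa1 (1.73 ± 0.68, adjusted p = 0.345), the ubiquitin ligase Smurf2 (-0.67 ± 0.31, adjusted p = 0.385) and the deubiquitinase Usp4 (0.72 ± 0.37, adjusted p = 0.414). Without irradiated replicate 1, in which Usp4 was at 267 CPM while irradiated replicates 2 and 3 had 96.0 and 92.6 CPM, the values were -0.33 ± 0.13 for Smurf2 and 0.06 ± 0.12 for Usp4.

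Gdf10, a divergent family member also called BMP3b, had the lowest p-value of the last list for irradiated against vehicle tumors. It was at 16.6, 6.92 and 9.92 CPM in vehicle, 97.7, 109.5 and 86.4 CPM in irradiated tumors, and 2.73, 74.5 and 23.8 CPM in R788 + anti-PDL1 tumors. All irradiated tumors lay above all others, but the difference from vehicle was not called (3.13 ± 0.89, edgeR adjusted p = 0.248), and the R788 + anti-PDL1 tumors reached from below the vehicle range to just under the irradiated one. The proteoglycan Bgn (0.80 ± 0.31, adjusted p = 0.333) and the antagonist Lefty1 (1.30 ± 0.53, adjusted p = 0.355) followed, at 1.04 ± 0.27 and 0.97 ± 0.54 without irradiated replicate 1. Without irradiated replicate 1, 5 pathway genes were called for irradiated against vehicle tumors (Cd109, Cyr61, Tnc, Vim and Zeb2), and no member, while the calls over all genes went from 7 to 57, or 0.343%.

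For irradiated against R788 + anti-PDL1 tumors, edgeR again called no pathway gene (DESeq2 called 9), with unadjusted p-values under 0.05 for 4 of 19, 1 of 24, 9 of 30 and 2 of 18 genes, beside 18.4% of all genes. The list medians were -0.06, 0.04, 0.18 and -0.23, beside 0.04 over all genes. Lox, at 0.516, 1.62 and 1.87 CPM in irradiated tumors, was at -2.67 ± 0.55 (edgeR adjusted p = 0.139), Itgb5 at 0.78 ± 0.25 (adjusted p = 0.222) and Itgav at 1.25 ± 0.42 (adjusted p = 0.223). Itgav was at 136 CPM in irradiated replicate 1 and at 44.8 and 45.2 CPM in replicates 2 and 3, and its difference was 0.52 ± 0.21 without the first. Of the induced genes, the cell cycle inhibitor Cdkn1a, also a target of p53, was at 13.4, 13.0 and 10.8 CPM in R788 + anti-PDL1 and 24.7, 24.9 and 32.0 CPM in irradiated tumors (1.14 ± 0.24, adjusted p = 0.141). Its vehicle values of 19.4, 31.2 and 27.5 CPM were close to the irradiated ones.

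The contractile gene Acta2 was at 28.8, 27.3 and 27.4 CPM in R788 + anti-PDL1 tumors and 14.2, 7.97 and 9.59 CPM in irradiated tumors (-1.39 ± 0.30, edgeR adjusted p = 0.156), and the AP-1 subunit Junb was at 1.43 ± 0.33 (adjusted p = 0.175). Vehicle values overlapped the irradiated ones for both genes, at 13.9, 7.54 and 9.21 CPM for Acta2 and 71.8, 115.6 and 108 CPM for Junb. Acta2 is also among the mural cell markers, whose 9 genes, none at 0 in any library, summed to 242 to 378 CPM in R788 + anti-PDL1 and 281 to 304 CPM in irradiated tumors. The part of mural cells in Acta2 was not tested. Usp4 (0.90 ± 0.38, adjusted p = 0.256), Strap (0.40 ± 0.23, adjusted p = 0.362) and Tab1 (0.29 ± 0.19, adjusted p = 0.4) had the lowest p-values of the signaling list, of which Usp4 was at 0.22 ± 0.12 without irradiated replicate 1. In the last list these were Acvr2a (-0.75 ± 0.31, adjusted p = 0.256), Lefty1 (1.27 ± 0.53, adjusted p = 0.256) and Bmpr1a (-0.47 ± 0.26, adjusted p = 0.335). Leaving out irradiated replicate 1 also moved Junb to 0.96 ± 0.19, Acvr2a to -0.43 ± 0.14, Lefty1 to 0.92 ± 0.54 and Bmpr1a to -0.23 ± 0.16.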

How the data were processed

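According to the methods, STAR was used by the authors for alignment to mm10 and Salmon, run within bcbio, for quantification. The submitters' processing notes list STAR 2.6.1d and Salmon 1.4.0. The deposited table holds estimated counts per gene symbol as whole numbers, not normalized, and whether the libraries kept strand is not given in the sources used here. The extraction label names macrophages although each sample's tissue is whole tumor, and labels and methods differ on paired-end or single reads.

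Genes were filtered with filterByExpr (minimum count 10), scaled by TMM and tested by robust quasi-likelihood (edgeR 4.0.16 under R 4.3.3), fitting all 9 libraries together without covariates. Tests were two-sided, with Benjamini-Hochberg adjustment over 15931 genes. On simulated data for R788 + anti-PDL1 against vehicle, run on 15931 genes, the fit recovered 10% of genes changed by a log2 fold of 1 and 74% of those changed by 2. Total counts were 18276683 to 23397886 per library. On the TMM-scaled library sizes, 3 counts stood at 0.115 to 0.221 CPM, highest in irradiated replicate 1, which covers counting error only.

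The 10 members, the pathway lists and the marker lists were chosen with earlier results of these data known. All members were named, with the called genes of each pathway list (at most 6) or else the 3 with the lowest p-values, and the 3 genes most alike in pattern to each ligand and to Smad7 (log2 CPM with prior count 2, mean count of at least 50, without predicted genes and receptor segments). Twist1, Tnc, Smad4, and Lox and Mmp9 in the comparison with vehicle, were named after their values were seen, as was the summary of chromosome 18, and the pathway genes' fold changes without single libraries were added at that stage. Lists were described by counts and medians. Positions, lengths and overlaps came from GENCODE M21 (GRCm38), and promoters from RefSeq (GRCm38.p6). Alternatives used DESeq2 1.42.0, limma 3.58.1, other scalings and filters, a replicate block, only the libraries compared, and leaving out each library. Some items are not reported here.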

Additional observations from a re-analysis of the deposited data

How the results depend on the processing

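Of the members' fold changes recomputed under the alternatives, 422 kept their direction and their side of the threshold, 11 passed it and 14 turned direction. The 11 are those of DESeq2 and of voom with sample quality weights, and the cause was not tested. The number of members called was 0 in all other settings, including each fit without 1 library. With upper-quartile scaling, Tgfb1 and Ltbp1 moved to 0.01 each for R788 + anti-PDL1 against vehicle. With quality weights, Tgfbr1 and Tgfbr2 moved to 0.12 each for irradiated against vehicle, and Tgfb3 to 0.05 against R788 + anti-PDL1. Leaving out 1 library at a time, R788 + anti-PDL1 against vehicle ranged from -0.13 to 0.02 for Tgfb1 and from -0.53 to 0.09 for Tgfb3, with both upper ends reached without vehicle replicate 1. Irradiated against vehicle ranged from -0.29 to 0.24 for Tgfbr1, -0.65 to 0.32 for Tgfbr2, -0.17 to 0.55 for Ltbp2 and -0.22 to 0 for Ltbp3, and irradiated against R788 + anti-PDL1 from -0.25 to 0.05 for Tgfb2 and -0.32 to 0.07 for Tgfb3. The upper ends for Tgfbr1, Tgfbr2, Tgfb2 and Tgfb3 in these 2 comparisons were reached without irradiated replicate 1, that of Ltbp3 without vehicle replicate 1, and the lower end of Ltbp2 without irradiated replicate 2.

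Members called moved from 0 to 2 with DESeq2 and to 4 with quality weights for R788 + anti-PDL1 against vehicle, and with quality weights to 2 and 3 in the other comparisons. Pathway genes called moved from 4 to 16 (DESeq2), 38 (quality weights), 13 (only the 6 libraries compared) and 0 to 3 (without 1 library) for R788 + anti-PDL1 against vehicle. For irradiated against vehicle they moved from 0 to 7 (DESeq2), 19 (quality weights), 4 (no low-count filter) and 0 to 5 (without 1 library). For irradiated against R788 + anti-PDL1 they moved from 0 to 9 (DESeq2) and 29 (quality weights), and stayed at 0 without any 1 library. With the replicate block the pathway calls for R788 + anti-PDL1 against vehicle went from 4 to 0, with 1775 unadjusted p-values under 0.05 over all genes against 1857 without it, and no member was called. The labels do not say what the replicate numbers share, so the numbers were not taken as pairs. Deviations of same-numbered tumors correlated at -0.046 to 0.233, and those of differently numbered tumors at -0.225 to 0.123. The highest values, 0.233 and 0.191, belonged to same-numbered irradiated and vehicle tumors, so these correlations do not settle whether the numbers mark pairs. The Tgfb1 share differences under the block were 2.06, 13.3 and 11.2 points, as without it, with exact p-values of 0.25, 0.5 and 0.5. This sign-flip test on 3 paired differences cannot give less than 0.25, so it cannot show a difference.

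With the longest transcript as the length, per-kb levels rose most for Tgfb1 (8.41 to 16.5 in vehicle), Ltbp1 (15.0 to 24.1) and Ltbp3 (24.3 to 38.4). With 3 tumors a group and the recovery rates given for simulated data, changes near a log2 fold of 1 would mostly be missed.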
